A study of Canis lupus familiaris with 2 samples.

Results

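Adhesion, motility and protease inhibition were represented by 6 genes among the 1729 rows of a comparison table of canine lymphoma cells: CD44, S100A4, TIMP1, SLPI, LAMC1 and EPCAM. They were taken from the table by symbol, and each had exactly 1 row. The table is itself a selection of rows that differed between the lines, and the 6 genes were chosen with their values known, so the values describe these 2 samples and no statistical test was made. CLBL-1 8.0 is a doxorubicin-resistant form of the canine diffuse large B-cell lymphoma line CLBL-1, kept in medium with 8 µM doxorubicin. It was set against CLBL-1 itself, labelled as without chemoresistance. Both lines are labelled as coming from lymph node and were grown in RPMI with 10% fetal bovine serum and antibiotics. Each line was 1 sample, made from RNA of 3 dishes, and whether the drug was withdrawn before extraction is not stated. The resistant line is 1 derived line, so drug exposure, resistance and descent from 1 culture cannot be told apart.

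Cells hold to and move through tissue by balancing receptors for the matrix, matrix proteins, the actomyosin machinery and the proteases that cut the matrix. CD44 binds the matrix sugar hyaluronan, laminins form the sheets of basement membranes, and EPCAM joins epithelial cells to each other. TIMP1 and SLPI are secreted inhibitors that hold metalloproteinases and neutrophil serine proteases in check, and S100A4 binds nonmuscle myosin and is linked to cell motility. In B cells CD44 is a homing and adhesion receptor, while EPCAM is known mainly as an epithelial protein.

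Of the 6 genes, 3 were higher in CLBL-1 8.0 than in CLBL-1 (CD44, S100A4 and TIMP1) and 3 were lower (SLPI, LAMC1 and EPCAM). The receptor, the myosin binder and the metalloproteinase inhibitor were 2.08-fold to 2.70-fold higher. The serine protease inhibitor SLPI was near 0, at 0.194 in CLBL-1 8.0 against 97.8 in CLBL-1. Among all 1729 rows, 65.2% were higher and 34.8% were lower in CLBL-1 8.0, and since the genes were picked from this comparison their own counts carry no further information. The median difference of the 6 genes was 0.17, against 0.73 over all rows. Their mean of -0.75 had the opposite sign to their median and was 0.38 without SLPI. These and all differences below are log2((CLBL-1 8.0 + 1)/(CLBL-1 + 1)), and each abundance is the deposited value per gene, whose unit is not stated. With 1 sample per line no value has a replicate error, and the depth behind the values is unknown. The RNA came from whole cultures, so fewer cells expressing a gene and less RNA per cell cannot be told apart.

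**Figure D1:**
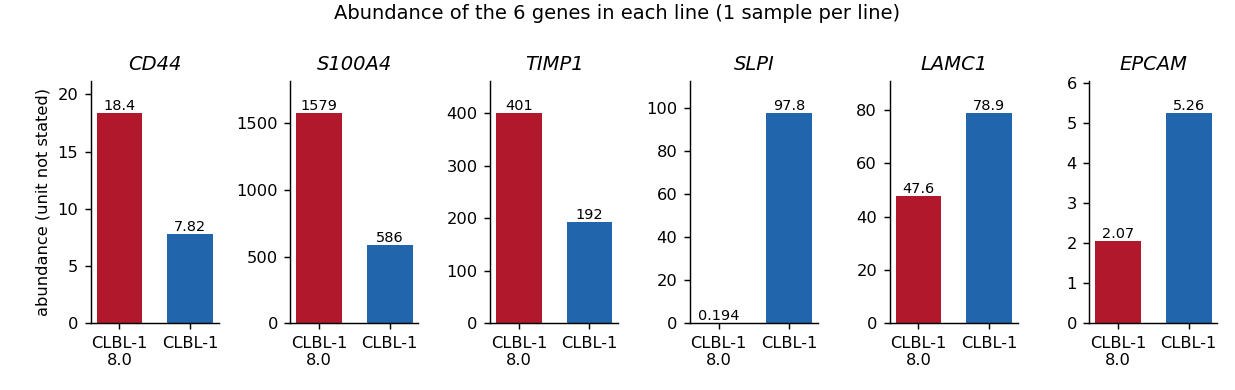
Deposited abundance (unit not stated) of each gene in CLBL-1 8.0 (red) and CLBL-1 (blue), 1 sample per bar, with a separate vertical axis from 0 for each gene. CD44, S100A4 and TIMP1 have the taller bar in CLBL-1 8.0; SLPI, at 0.194 against 97.8, has almost no bar there.

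CD44, the hyaluronan receptor (gene ID 403939, chromosome 18, 32735493 to 32826990, minus strand; coordinates as deposited, on CanFam3.1 per the submitters' processing notes), was at 18.4 in CLBL-1 8.0 against 7.82 in CLBL-1. The resistant line was thus 2.35-fold higher, with a log2 difference of 1.14, rank 294 from the largest increase of the table. CD44 transcripts are spliced in many forms, and a value per gene does not separate them. The 2-fold limit was no longer met with upper-quartile scaling, which multiplied the parental values by 1.25 and gave 0.85, or when 5 was added to each value in place of 1, which gave 0.87. Of 24 genes of hyaluronan metabolism and CD44 ligands and partners, 5 were in the table. Of these, 4 were higher and 1 was lower, and the median was 0.69. SRGN, the proteoglycan serglycin, which can bind CD44, was at 116 in CLBL-1 8.0 against 42.9 in CLBL-1. The hyaluronan-cleaving enzyme HYAL2 was at 38.8 against 23.6, and its relative HYAL3 at 29.7 against 18.4. The other hyaluronan-binding protein of the list with a row, HMMR, which also acts at the mitotic spindle, was lower, at 45.0 against 83.9. The 2 listed hyaluronan binders therefore differed in opposite directions, while both hyaluronidase-family rows were higher. HYAL2 and HYAL3 lie close together on chromosome 20 (39029426 to 39034451 and 39041940 to 39047388). Their differences, 0.69 and 0.67, were below the median of all rows, 0.73. The median of this list became -0.039 when the median of all rows was subtracted from each difference.

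S100A4 (gene ID 403787, chromosome 7, 43494007 to 43496021, plus strand), a small calcium-binding protein that binds nonmuscle myosin heavy chain, was at 1579 in CLBL-1 8.0 against 586 in CLBL-1. It was 2.70-fold higher, with a log2 difference of 1.43 and rank 157 from the largest increase, the highest rank of the 6 genes. Its difference exceeded 2-fold as deposited, with 5 added (1.42) and with upper-quartile scaling (1.11), but was 0.70 after the median of all rows was subtracted. S100 genes lie side by side on this chromosome, and 3 of them had a row, all higher. S100A2 lay 11.9 kb before S100A4 and was at 34.3 in CLBL-1 8.0 against 17.9 in CLBL-1. LOC102156046, whose deposited description is protein S100-A15A-like, lay 7.21 kb after it and was at 5.94 against 2.39. By the order of genes in RefSeq, S100A3 stands between S100A2 and S100A4, and S100A5 and S100A6 stand between S100A4 and LOC102156046, and none of these had a row. Within 10 Mb of S100A4, 18 of 21 other rows were higher, with a median of 0.90, so S100A4 shared its direction with most listed rows around it. Over all rows 65.2% were higher, with a median of 0.73.

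In the list of S100 proteins, annexins and nonmuscle myosins, 5 of 36 genes had a row, of which 3 were higher and 2 lower. Their median was 0.89, while their mean was -0.10. Annexins, which bind membrane phospholipids when calcium is present, were split. ANXA5 was at 251 in CLBL-1 8.0 against 135 in CLBL-1, whereas ANXA6 was at 6.24 against 55.9, a log2 difference of -2.98, and ANXA4 was at 5.52 against 9.98. None of the nonmuscle myosin genes of the list had a row. The smooth muscle myosin MYH11, outside the list and named after its value was seen, was at 5.07 against 1.21.

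TIMP1, an inhibitor of matrix metalloproteinases (gene ID 403816, chromosome X, 41201623 to 41205314, plus strand), was at 401 in CLBL-1 8.0 against 192 in CLBL-1. It was 2.08-fold higher, with a log2 difference of 1.06 and rank 362 from the largest increase. The value lay just past the 2-fold limit and fell short of it with upper-quartile scaling, at 0.73. In the reference table TIMP1 lies inside SYN1, a gene for a synaptic vesicle protein that had no row. How strand was handled is not stated, so reads of these overlapping genes may not have been separable. CD63, a tetraspanin that binds TIMP1 on the surface of human cells, was also higher, at 554 in CLBL-1 8.0 against 345 in CLBL-1. A list of 53 genes held metalloproteinases, ADAM and ADAMTS genes and inhibitors, and also CD63. Of these, 4 had a row, with 3 higher and 1 lower (median 0.87, CD63 included). RECK, a membrane-anchored inhibitor of metalloproteinases, was at 6.29 against 2.49. ADAM28, a membrane protease first known from lymphocytes, was at 0.267 in CLBL-1 8.0 against 5.28 in CLBL-1. Both metalloproteinase inhibitors with a row were thus higher and the 1 protease with a row was lower, and no MMP gene had a row. The larger values of RECK (6.29) and ADAM28 (5.28) were near 5.01, the smallest larger value of any row. When at least 10 was required of the larger value, only TIMP1 and CD63 of this list remained.

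SLPI, an inhibitor of neutrophil elastase and cathepsin G (gene ID 100127207, chromosome 24, 32566030 to 32568406, minus strand), was at 0.194 in CLBL-1 8.0 against 97.8 in CLBL-1. The ratio of the deposited values was 504-fold lower in the resistant line, but its size rests on the low value. The log2 difference was -8.98 for the deposited values alone, -6.37 after adding 1 to each and -4.31 after adding 5. It ranked 3 from the largest decrease of the table. SLPI and RAC2, a small GTPase of blood cells that drives actin remodelling, were the only 2 of 1729 rows with at least 50 in CLBL-1 and below 1 in CLBL-1 8.0, a pair of limits chosen after the values were seen. A list of 57 genes held serine and cysteine protease inhibitors and their targets, and also PLSCR4, which is neither inhibitor nor protease. Of these, 4 were listed, 3 higher and 1 lower, and SLPI was the lower one. SERPINB5, the serpin maspin, was at 5.94 in CLBL-1 8.0 against 1.02 in CLBL-1. PLSCR4, a phospholipid scramblase of a family that binds SLPI in human cells, was at 20.9 against 13.1. The median of this list was 0.75 and its mean -0.77, and the 2 rows left when at least 10 was required of the larger value, SLPI and PLSCR4, had a median of -2.87. ELANE and CTSG, which encode the proteases that SLPI inhibits, had no row.

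LAMC1 (gene ID 480034, chromosome 7, 16406421 to 16528372, plus strand) encodes the gamma-1 chain shared by most laminins. It was at 47.6 in CLBL-1 8.0 against 78.9 in CLBL-1, 1.66-fold lower, with a log2 difference of -0.72. This is a small difference for the table, in which the smallest fold was 1.59 and 200 rows had a smaller absolute log2 fold than LAMC1. It did not reach the 2-fold limit with a pseudocount of 1, and passed it with upper-quartile scaling, at -1.04. Of 34 laminin and basement membrane genes, 3 were listed, and the other 2 were higher. DAG1, which encodes the laminin receptor dystroglycan, was at 28.6 in CLBL-1 8.0 against 14.8 in CLBL-1. SPARC, a collagen-binding matrix protein, was at 340 against 198. No other laminin chain had a row, so the gamma-1 value stands without that of an alpha or beta partner.

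EPCAM, the epithelial cell adhesion molecule (gene ID 481360, chromosome 10, 49446165 to 49498690, plus strand), was at 2.07 in CLBL-1 8.0 against 5.26 in CLBL-1. It was 2.54-fold lower by the deposited values, with a log2 difference of -1.03 that became -0.54 with 5 added to each value. Both values were low: the smallest larger value of any row was 5.01, and 36 rows had a larger value below that of EPCAM. The span given for EPCAM was 3.95 times that of the gene in the reference table, whereas the spans of the other 5 genes were 0.989 to 1.04 times theirs. Of 9 epithelial markers EPCAM was the 1 with a row, and CDH1 and the 5 keratins among them had none. KRT27, a hair follicle keratin outside that list, was at 14.4 in CLBL-1 8.0 against 0.489 in CLBL-1 and was named after its value was seen. Of 40 genes of epithelial adhesion and junctions, 4 were listed, 3 of them higher, and EPCAM was the lower one. The claudin CLDN23 was at 17.8 in CLBL-1 8.0 against 6.63 in CLBL-1, and the desmosomal plakophilin PKP2 at 6.68 against 3.32. The claudin CLDN12, on chromosome 14, was at 111 against 10.7. Its deposited span, 16286030 to 17007482, is wider than that of EPCAM and was not compared with the reference. Whether the value belongs to CLDN12 alone was not tested.

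**Figure D2:**
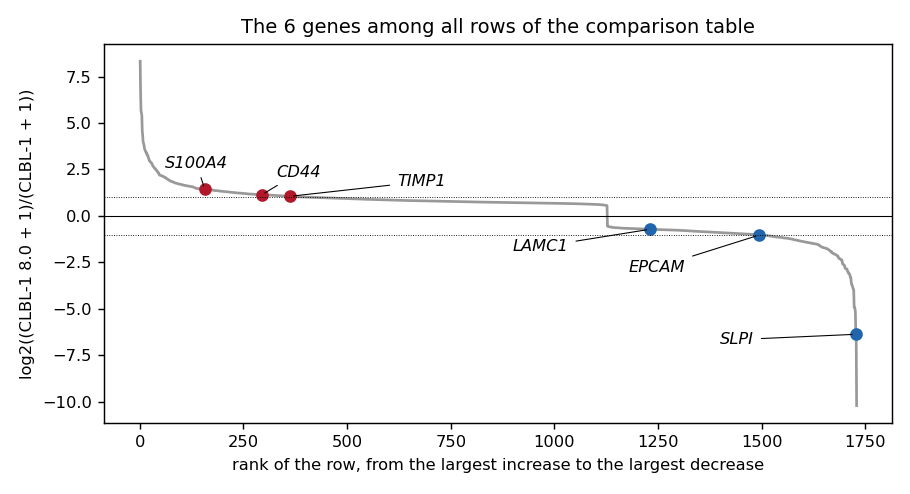
Log2((CLBL-1 8.0 + 1)/(CLBL-1 + 1)) of all 1729 rows in order of rank (grey line), with the 6 genes as points, red where higher and blue where lower in CLBL-1 8.0; dotted lines mark a 2-fold difference. SLPI stands at the far end, with rank 3 from the largest decrease, while the other 5 lie on the flat parts of the curve between -1.03 and 1.43.

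The 6 genes thus differed in size as well as in direction. On the log2(value + 1) scale, 3 of them were at least 2-fold higher, against 24.1% of all rows, and 2 were at least 2-fold lower, against 14.4%. Of the 5 other treatments of the values, only subtracting the median of all rows could have turned a direction, and only of a row less than 0.73 higher. CD44, S100A4 and TIMP1 were still higher after it, by 0.41, 0.70 and 0.32. The number past 2-fold was 1 higher and 3 lower under upper-quartile scaling, and 0 higher and 3 lower after subtracting that median. This scaling lowers each difference by up to 0.32, and subtracting the median of all rows lowers it by 0.73.

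**Figure D3:**
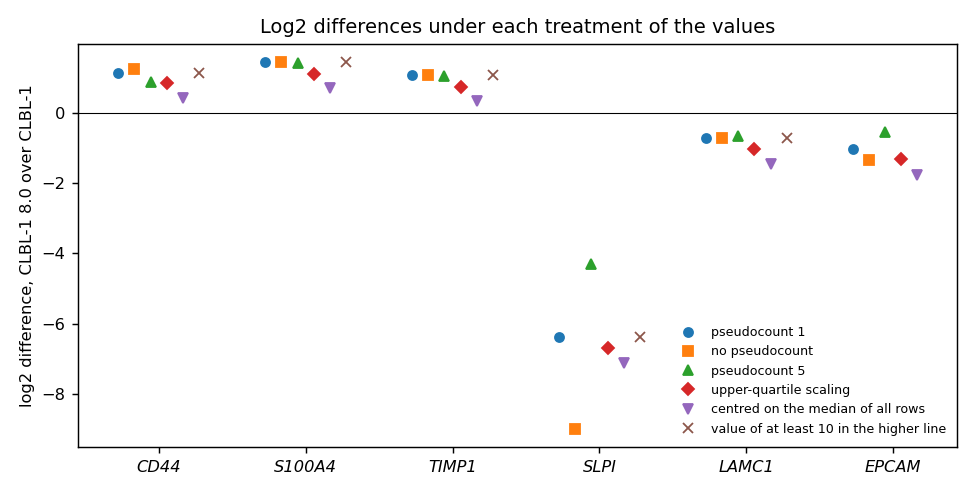
Log2 difference of each gene, CLBL-1 8.0 over CLBL-1, with a pseudocount of 1 and under 5 other treatments of the values (symbols). After centring, the treatment that could turn a sign, CD44, S100A4 and TIMP1 lie between 0.32 and 0.70; SLPI moves between -8.98 and -4.31, and EPCAM, whose larger value is 5.26, has no symbol where a larger value of at least 10 was required.

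The genes lie on 5 chromosomes, and 62.3% to 76.5% of the rows of each were higher in CLBL-1 8.0, against 65.2% of all rows. Of the rows of chromosome 7, which holds S100A4 and LAMC1, 46 of 62 were higher. On chromosome 10, with EPCAM, 39 of 51 were higher, and on chromosome 24, with SLPI, 26 of 35. Chromosome 18, with CD44, had 31 of 48 rows higher, and chromosome X, with TIMP1, 33 of 53. The 3 lower genes thus lay on chromosomes where most listed rows were higher.

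Nearby rows went both ways around most of the genes. CD44 had TRIM44, a member of the tripartite motif family, 384 kb before it, at 36.6 in CLBL-1 8.0 against 21.2 in CLBL-1. On its other side, EIF3M, a translation initiation factor subunit, lay 2.12 Mb away and was lower, at 168 against 292. For TIMP1, leaving out genes named only by a LOC number, the nearest row on each side was higher. These were the ion exchanger SLC9A7 at 6.51 against 2.93 and, 50.9 kb away, the transcription factor ELK1 at 26.5 against 16.04. LOC100685407, on the same side as SLC9A7 and nearer to TIMP1, was lower, with a log2 difference of -0.62. SMAD2, a TGF-beta signal transducer 201 kb beyond S100A4, was at 16.4 against 8.34.

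Beside the lower genes, SLPI had ADA, the enzyme adenosine deaminase, 446 kb before it, at 6.20 in CLBL-1 8.0 against 22.7 in CLBL-1. Within 10 Mb of SLPI, 8 of 12 other rows were higher. LAMC1 had GLUL, glutamine synthetase, 666 kb before it, at 50.2 against 107, and FAM129A 1.49 Mb after it, at 67.7 against 40.4. EPCAM lay between PRKCE, a protein kinase C at 11.7 against 6.95, and the spectrin gene SPTBN1, 5.93 Mb away, at 18.4 against 46.5. Within 10 Mb, 8 of 11 other rows were higher around LAMC1 and 6 of 8 around EPCAM. Over all rows 65.2% were higher, so mostly higher neighbours are not particular to these 3 genes.

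**Figure D4:**
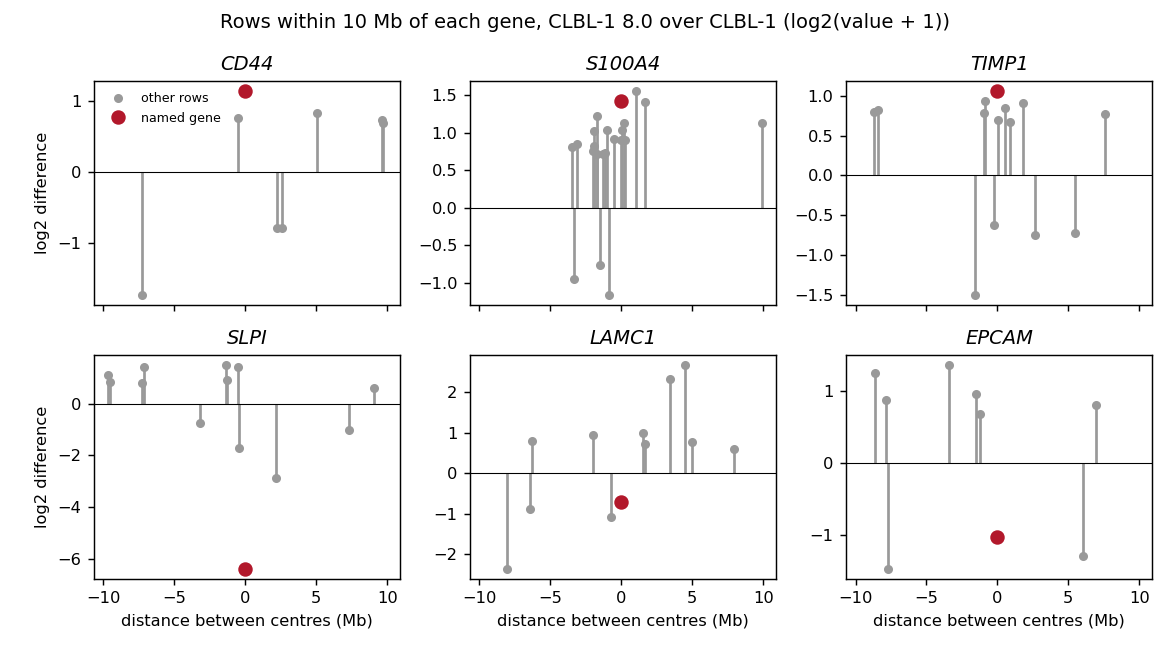
Log2 difference, CLBL-1 8.0 over CLBL-1, of each gene (red) and of the other rows (grey) within 10 Mb of it, against the distance between gene centres in Mb; the vertical axis differs between panels. Around S100A4, 18 of 21 other rows are higher. SLPI, LAMC1 and EPCAM stand below 0 among rows that are mostly higher, as are 65.2% of all rows.

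The rows whose pair of values was nearest to that of each gene, by distance in log2(value + 1) over the 2 samples, were also sought. With 2 samples this likeness is only a similarity of level and difference. For SLPI the nearest row was RAC2, at 0.141 in CLBL-1 8.0 against 105 in CLBL-1, at a distance of 0.12. The next, PTPRCAP, whose product associates with the phosphatase CD45, was at 1.55 against 79.95, a distance of 1.13. For CD44 they were TMEM25, at 18.5 against 7.63, and TTC9C, at 19.1 against 7.66. For S100A4 they were PEBP1, an inhibitor of RAF kinase, at 1259 against 635, and SERF2, at 1103 against 618. TIMP1 was nearest to SELENOF, a selenoprotein, at 394 against 195, and to the class II gene DLA-DQA1, at 373 against 190. LAMC1 was nearest to UFL1, a ligase of the ubiquitin-like UFM1, at 49.4 against 81.9, and to PPP2R2A, a phosphatase subunit, at 44.8 against 79.1. EPCAM was nearest to the folate enzyme MTHFS, at 1.95 against 5.13, and to PLD2, a phospholipase D, at 2.21 against 5.16. The rows of S100A4 lay at distances of 0.35 and 0.52. The second row lay between 0.055 and 0.10 from CD44, TIMP1, LAMC1 and EPCAM.

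All 6 genes belonged to 1 term of the authors' deposited table, extracellular exosome, which had 205 genes and a p-value of 0.0239. Rows with the ID of one of its genes made up 11.9% of the table. Of its 205 genes, 123 were higher and 82 lower in CLBL-1 8.0. Among all rows 65.2% were higher, the share to set beside this count and those that follow. In the authors' deposited table CD44 was also in focal adhesion (37 genes, p-value 0.0185), of which 26 were higher and 11 lower in CLBL-1 8.0. CD44 was in Golgi apparatus too in the authors' deposited table (65 genes, p-value 0.000151), of which 45 were higher and 20 lower. LAMC1 was in pathways in cancer in the authors' deposited table (49 genes, p-value 0.00337), of which 36 were higher. SLPI was in negative regulation of viral genome replication in that deposited table of the authors (7 genes, p-value 0.00893), of which 4 were lower. TIMP1 was in response to cytokine in the authors' deposited table (6 genes, p-value 0.0769), of which 5 were higher. EPCAM was in no term but extracellular exosome in the authors' deposited table, and S100A4 was also in perinuclear region of cytoplasm, with 23 of 42 genes higher. The terms named are a part of the 12 that held at least 1 of the 6 genes, among 118 GO and 50 KEGG terms deposited.

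The wider adhesion, motility and protease lists gave the setting for these genes. Over 9 lists with 424 distinct genes, 49 were listed, 31 higher and 18 lower. Without the 6 genes, 28 of 43 rows were higher, which is 65.1% and near the 65.2% of all rows. Leukocyte adhesion and homing genes had 7 of 50 in the table, 6 of them higher, and a median of 1.02. S1PR2, a receptor that confines B cells to germinal centres, was at 19.1 in CLBL-1 8.0 against 7.36 in CLBL-1. SPN, the sialomucin CD43, was at 1019 against 492, and the adhesion molecules CD99L2 and ALCAM were at 27.6 against 13.1 and at 9.41 against 4.24. The tetraspanin CD81 was at 159 against 98.9. CD44 thus shared its direction with 6 of these 7 genes. The difference of CD81, 0.68, was below the median of all rows, 0.73, so its direction turned when that median was subtracted.

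Integrins and their adaptors had 5 of 55 genes in the table, with 3 higher, 2 lower and a median of 0.74, and no integrin chain had a row. The adaptors TLN2, a talin, at 6.87 in CLBL-1 8.0 against 2.43 in CLBL-1, and ZYX, zyxin, at 19.4 against 8.25, were higher. The scaffold NEDD9 was at 26.3 against 15.4. ITGB3BP, which binds an integrin tail and the centromere, was at 23.6 against 43.7, and the integrin activator FERMT3 at 1.81 against 84.0. The actin motility list was the 1 list of the 9 with a negative median, -1.03, with 4 of its 12 listed genes higher and 8 lower out of 77. Beside RAC2, the cortactin relative HCLS1 was at 0.120 in CLBL-1 8.0 against 13.8 in CLBL-1, DOCK8, an exchange factor, at 1.22 against 14.8, and VAV1, another, at 2.27 against 14.5. WIPF1, a partner of the WASP protein, was at 14.6 against 42.0, while CAPZB, which caps the ends of actin filaments, was higher, at 201 against 3.78. S100A4, listed for motility through myosin, thus differed in direction from most listed genes of actin remodelling.

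**Figure D5:**
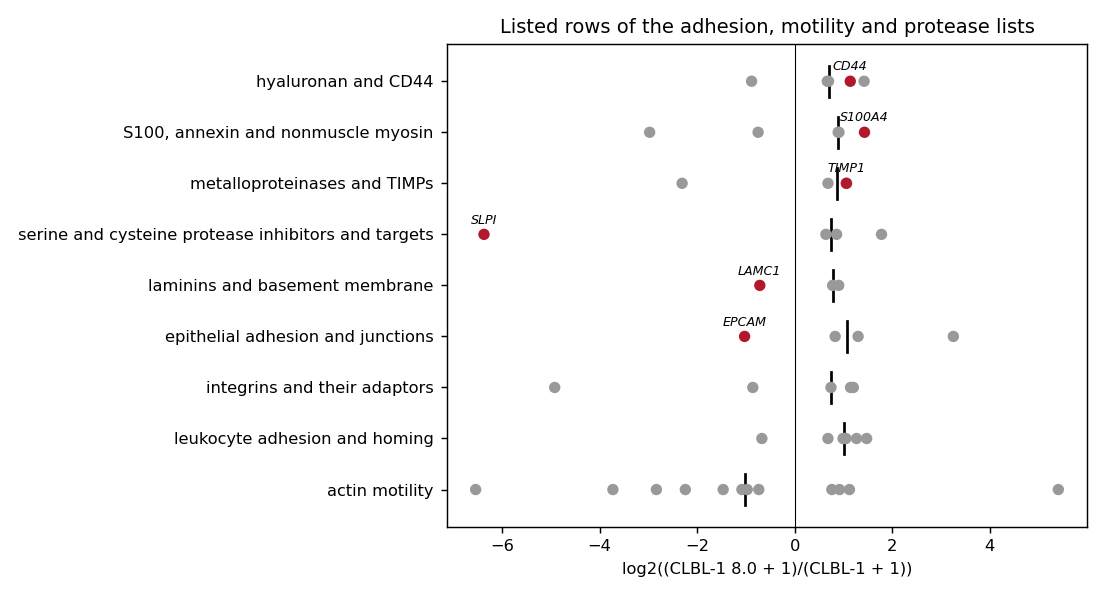
Log2((CLBL-1 8.0 + 1)/(CLBL-1 + 1)) of every listed row in each of 9 gene lists, 1 point per row, with the 6 genes in red, other rows in grey and the list median as a black bar. The actin motility median is -1.03 and the other 8 medians lie between 0.69 and 1.06; SLPI, LAMC1 and EPCAM lie on the other side of 0 from the medians of their own lists.

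Markers of other cell types were few in the table. No fibroblast, stromal or endothelial marker of 12 had a row, so the matrix genes LAMC1, TIMP1 and SPARC had no listed stromal marker beside them. Since the table holds only rows that differed, a gene expressed alike in both lines has no row. A missing row therefore does not show that a marker was absent. Of 9 myeloid markers FCER1G was listed, at 14.01 in CLBL-1 8.0 against 7.74 in CLBL-1. Of 9 T and NK markers GZMA was at 47.1 against 23.5 and PRF1 at 1.07 against 6.67. Of 10 B cell markers CD37 was listed, at 26.6 against 50.4, and the others had no row, so B cell identity could not be checked further from this selection. The part of other cells in the values of the 6 genes was not tested.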

How the data were processed

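Poly-A-selected RNA of 2 lines was sequenced, 1 sample each. The submitters' processing notes name HISAT2, StringTie and the CanFam3.1 build; their versions, settings and treatment of strand are not stated there. The deposited abundance signal per gene is not a count, and its unit is not stated (FPKM or TPM are possible). Depth is unknown, so intervals were not computed. The deposited log2 fold change column is log2 of CLBL-1 8.0 over CLBL-1, matching to within 1.6e-14 in the 1720 rows with a finite value. Term p-values were taken as deposited. The tool and background behind them, and any correction for the number of terms, are not stated. The column CLBL-8 was matched to CLBL-1 8.0 by name.

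Differences were computed with Python 3.11.15, pandas 2.3.3 and NumPy 2.4.6 as log2((CLBL-1 8.0 + 1)/(CLBL-1 + 1)), without a filter on low values, and the calculation was checked on simulated data. A 2-fold limit was used for counts. No test was made. Members and lists were chosen with earlier results of these data known. Alternatives were no pseudocount, a pseudocount of 5, upper-quartile scaling, centring on the median of all rows, and a larger value of at least 10. Named were the 6 genes, all listed rows of 6 lists, up to 6 rows each of the integrin, leukocyte and motility lists, the nearest named rows on the chromosome and the 2 rows nearest in value; some rows that this rule takes are not reported here. Reference names and gene order come from RefSeq, assembly UU_Cfam_GSD_1.0, which held 1605 of 1707 gene IDs.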

Additional observations from a re-analysis of the deposited data

How the results depend on the processing

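Of the 5 alternatives, a changed pseudocount and the minimum of 10 in the higher line cannot turn a direction, and neither could upper-quartile scaling, since its shift of 0.32 is below the smallest absolute log2 fold of 0.67. Centring could turn only differences between 0 and 0.73, and turned none of the 6 genes. EPCAM had no value with the minimum of 10. CD44 ranged from 0.41 to 1.23, S100A4 from 0.70 to 1.43, TIMP1 from 0.32 to 1.06, SLPI from -8.98 to -4.31, LAMC1 from -1.45 to -0.67 and EPCAM from -1.76 to -0.54. Their median of 0.17 was also 0.17 without a pseudocount and with a pseudocount of 5, but -0.15 with upper-quartile scaling, -0.56 when the median of all rows was subtracted (centring) and 1.06 with the minimum of 10. Members at least 2-fold higher numbered 3, against 2 with a pseudocount of 5, 1 with upper-quartile scaling and 0 when centred. Those at least 2-fold lower numbered 2. This became 1 with a pseudocount of 5, 1 with the minimum of 10, 3 with upper-quartile scaling and 3 when centred. Over the 9 lists, 16 rows were at least 2-fold higher. This became 19 without a pseudocount, 7 with a pseudocount of 5, 13 with the minimum of 10, 7 with upper-quartile scaling and 3 when centred. Rows at least 2-fold lower numbered 11. This became 9 with a pseudocount of 5, 9 with the minimum of 10, 17 with upper-quartile scaling and 18 when centred. By construction, scaling and centring lower every difference. The median of the hyaluronan list changed sign when centred (-0.039). With the minimum of 10, which left fewer rows, the protease inhibitor list (-2.87, SLPI and PLSCR4) and the integrin and adaptor list (-0.059) changed sign. No paired analysis was possible because each line has 1 sample, and for the same reason no replicate could be left out. The depth is unknown, so how well 0.194 for SLPI is told from 0 could not be measured.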
